A study of Mus musculus with 17 samples.

Results

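Transcripts of 10 heat shock protein genes were followed through early spermatogenesis in WT and *Nat10*-SKO mice. The 10 genes, out of 23282 in the deposited table, were chosen by symbol: 3 germ cell chaperones (*Hspa2*, *Hspa1l* and *Hspa4l*), 5 stress-induced chaperones (*Hspa1a*, *Hspa1b*, *Dnajb1*, *Hsph1* and *Hsp90aa1*) and 2 constitutive chaperones (*Hspa5* and *Hspa8*). All 10 had a row. The cells, sorted by Hoechst fluorescence, were spermatogonia (SPG), spermatocytes before leptotene (pre-leptotene, PreL) and spermatocytes of the following leptotene and zygotene stages (LZ), and polyadenylated RNA was amplified by Smart-seq2. The *Nat10*-SKO cells came from *Nat10* fl/-;*Stra8*-Cre mice, in which a GFPCre knocked in at *Stra8* excises exons 4 and 5 of *Nat10*, the gene of the RNA cytidine acetyltransferase, once germ cells commit to differentiation. The WT and *Nat10*-SKO animals were labelled C57BL/6, with C57BL/6J given in the study's methods, and their age at sorting was not given in the sources used here. There were 3 libraries of each genotype for SPG and PreL, and 2 WT and 3 *Nat10*-SKO libraries for LZ. The study calls the libraries of a group biological replicates. Whether each came from a separate animal was not found in the sources used here, and the p-values measure the spread between these libraries.

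Heat shock proteins are chaperones that bind unfolded polypeptides and release them after rounds of ATP hydrolysis. HSP70 proteins are driven by J-domain partners such as DNAJB1, which stimulate their ATPase, and by HSP110 proteins such as HSPH1 and HSPA4L, which exchange the nucleotide. HSP90 receives client proteins from HSP70. In somatic cells heat or unfolded protein activates HSF1, which binds arrays of inverted GAA units and induces *Hspa1a*, *Hspa1b*, *Dnajb1* and *Hsph1*, while *Hspa8* serves unstressed cells and *Hspa5* (BiP) serves the endoplasmic reticulum. Germ cells carry forms of their own. HSPA2 is abundant in pachytene spermatocytes, where it is bound to the synaptonemal complex and is needed for CDK1 to be activated at the end of meiotic prophase, and HSPA1L and HSPA4L are best known from spermatocytes and spermatids.

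Promoter sequences are shown for the 4 HSP70 genes whose transcripts moved most between the genotypes, because 3 of them lie side by side. On chromosome 17 (GRCm38), *Hspa1b* (34956436 to 34959238, minus strand), *Hspa1a* (34969190 to 34972156, minus strand) and *Hspa1l* (34972703 to 34979285, plus strand) follow one another. The starts of *Hspa1a* and *Hspa1l* are 546 bases apart and point away from each other. *Hspa2* is at 76404176 to 76406938 on the plus strand of chromosome 12. Promoters were taken as the 250 bases before the RefSeq transcript start in GRCm38.p6. They are written 5′ to 3′ on the strand of the gene, and capitals mark a match to GAANNTTC, the inverted pair of heat shock units. For *Hspa2* the 80 bases next to the start are shown, because an annotated exon of a longer transcript lies upstream of them.
Hspa1a (chr17:34972157-34972406, minus strand): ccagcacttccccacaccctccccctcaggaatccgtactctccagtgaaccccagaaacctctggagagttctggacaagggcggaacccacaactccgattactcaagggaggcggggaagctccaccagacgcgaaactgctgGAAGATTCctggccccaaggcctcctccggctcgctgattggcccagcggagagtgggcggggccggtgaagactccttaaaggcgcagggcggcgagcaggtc
Hspa1b (chr17:34959239-34959488, minus strand): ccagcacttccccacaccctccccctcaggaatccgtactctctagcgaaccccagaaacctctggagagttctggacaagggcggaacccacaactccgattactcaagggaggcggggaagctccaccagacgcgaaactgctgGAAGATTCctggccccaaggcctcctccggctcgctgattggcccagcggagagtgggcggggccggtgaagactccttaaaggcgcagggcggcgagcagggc
Hspa1l (chr17:34972453-34972702, plus strand): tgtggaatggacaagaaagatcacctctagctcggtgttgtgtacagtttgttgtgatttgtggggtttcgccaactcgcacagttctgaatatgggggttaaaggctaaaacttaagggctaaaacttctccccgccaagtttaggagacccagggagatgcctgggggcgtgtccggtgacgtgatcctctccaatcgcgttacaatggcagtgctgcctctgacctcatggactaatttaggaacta
Hspa2 (chr12:76404290-76404369, plus strand): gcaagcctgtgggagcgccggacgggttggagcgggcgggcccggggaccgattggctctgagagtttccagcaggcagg

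The *Hspa1a* and *Hspa1b* sequences were identical at 247 of 250 positions (98.8%), and each held 1 GAANNTTC match, 104 to 97 bases before the start. The whole 250-base windows of *Hspa1l* and *Hspa2* held neither GAANNTTC nor the other orientation, TTCNNGAA. Promoters were found for 8 of the 10 genes. Of the other 4, *Hsph1* had a TTCNNGAA match, and *Hspa4l*, *Dnajb1* and *Hspa5* had no match to either motif, which says only that these letters are not in these windows. Among 32851 promoters of the same length, 6.69% held GAANNTTC and 7.17% held TTCNNGAA, on either strand since both motifs are their own reverse complement. The CCAAT box, searched as CCAAT on both strands, was in 33.9% of all promoters and occurred 1 time in each of these 4 windows.

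The libraries held 5812380 to 13820953 reads assigned to genes, with the fewest in LZ of *Nat10*-SKO (5812380 to 7609420, against 13666762 and 13820953 in WT LZ). Values of each stage are given as rescaled values, the deposited calibrated counts divided by size factors computed within that stage. A gene was called when the adjusted p was under 0.05 and the change above 1 on the absolute log2 scale in limma. *Nat10* itself had 485, 350 and 446 reads in WT SPG against 159, 197 and 269 in *Nat10*-SKO SPG, 377, 385 and 248 against 168, 160 and 114 in PreL and 388 and 391 against 45, 52 and 61 in LZ. It was lower in *Nat10*-SKO by 1.84-fold, 2.53-fold and 2.82-fold, a log2 change of -0.87 ± 0.24 (SE, adjusted p = 0.0326), -1.29 ± 0.23 (SE, adjusted p = 0.00591) and -1.47 ± 0.29 (SE, adjusted p = 0.00469). The SPG change did not pass the fold threshold, the PreL call was lost without rescaling (-0.59, adjusted p = 0.114), the LZ call was lost without WT LZ replicate 3 (adjusted p = 0.0535), and a count over the whole gene also includes transcripts that lack only the excised exons.

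Markers of later germ cells differed between the genotypes at the labelled stages, and they are given here because several heat shock genes moved with them. The summed level of 14 late spermatocyte markers was 5468 to 9767 RPM (reads scaled to a common library total) in WT LZ and 102 to 113 in *Nat10*-SKO LZ, 626 to 1694 against 128 to 166 in PreL, and 288 to 468 against 135 to 333 in SPG. The 12 spermatid markers summed to 883 to 1205 against 7.65 to 10.7 in LZ, 616 to 1045 against 10.8 to 16.5 in PreL and 117 to 347 against 4.45 to 10.7 in SPG, and *Acrv1*, *Odf1* and *Spem1* had no read in *Nat10*-SKO LZ. In LZ 13 of the 13 late spermatocyte markers tested and 12 of 12 spermatid markers were called lower, where 25.8% of all genes were. In PreL 12 of 13 and 9 of 12 were called lower, against 5.83% of all genes. In SPG 6 of 12 and 8 of 12 were, against 2.06%. The 11 early meiotic markers, which belong to the labelled LZ stage, stayed detected in every group, at 5428 to 6472 RPM in WT LZ and 3595 to 5418 in *Nat10*-SKO LZ, and 1 of 11 was called lower there. At the other stages their sums were higher in *Nat10*-SKO, at 4527 to 4904 RPM against 3268 to 3362 in SPG and 6718 to 9520 against 4852 to 5595 in PreL. There 0 of 11 and 2 of 11 were called higher, against 3.95% and 5.32% of all genes. The 12 spermatogonial markers were also detected in every group. They summed to 1537 to 1690 RPM in *Nat10*-SKO against 1153 to 1260 in WT in SPG, 1119 to 1211 against 1261 to 1372 in PreL and 868 to 914 against 569 to 1076 in LZ. By FACS of testis cells, the paper detected no haploid round spermatids in *Nat10*-SKO and reported a sharp drop in tetraploid spermatocytes. The paper also counted its sorted PreL and LZ cells by immunofluorescence. Most were at the labelled stage, with few pachytene cells in LZ and none in PreL. The genotype of the counted cells was not given. From these bulk samples alone, fewer cells of a type and less RNA per cell cannot be told apart, and the part of these markers in the heat shock results was not tested. Their per-library sums are plotted next to a list of 10 immediate early genes.

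**Figure D1:**
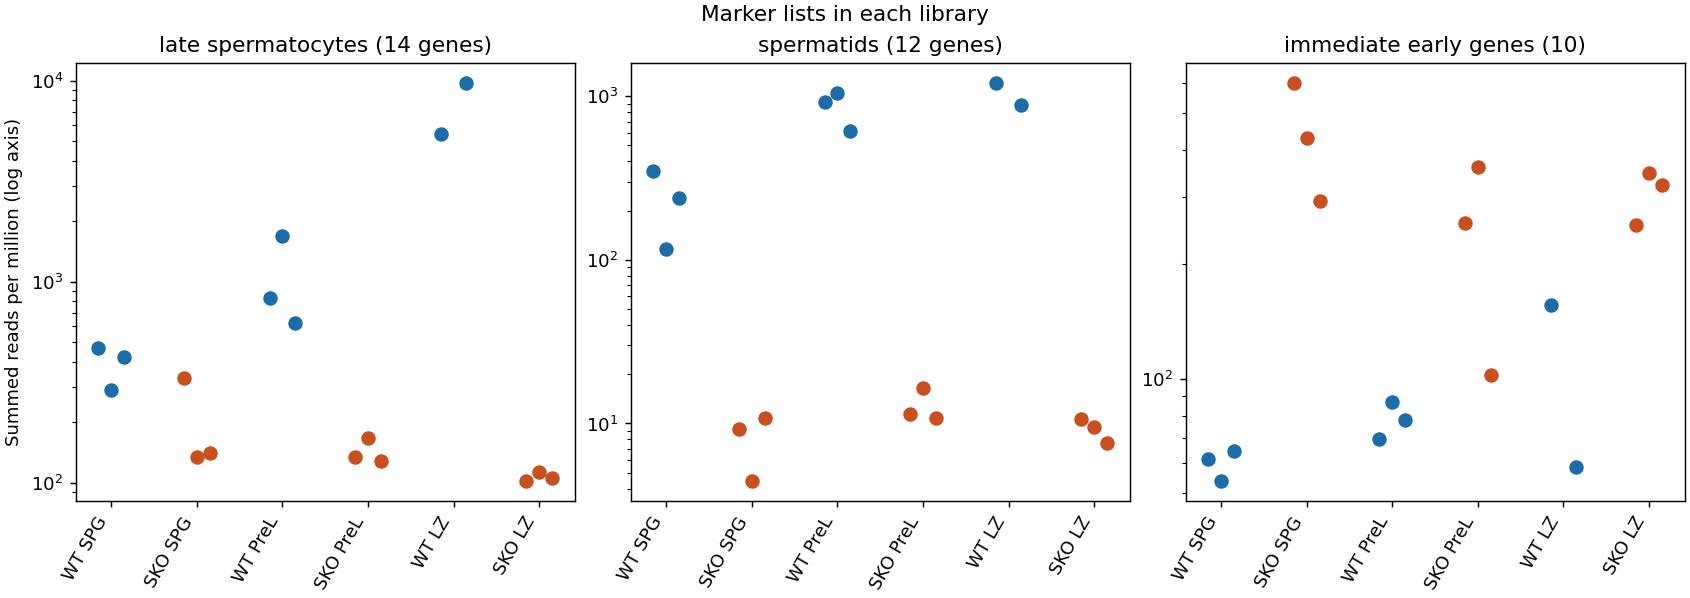
Summed RPM (log axis) of 3 marker lists in each library, by group, with WT in blue and SKO in orange. Late spermatocyte and spermatid markers were highest in WT LZ and WT PreL, and the 10 immediate early genes were higher in every SKO library than in any WT library of the same stage.

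Among the germ cell chaperones, *Hspa2* had the highest level per kilobase in WT LZ and was lower in *Nat10*-SKO at PreL and LZ. Its rescaled values in SPG were 608, 764 and 656 in WT and 507, 310.3 and 249 in *Nat10*-SKO. All 3 *Nat10*-SKO libraries lay below all 3 WT libraries, a log2 change of -0.96 ± 0.25 (SE, adjusted p = 0.0253), which stayed just under the fold threshold and was not called, although it was called without *Nat10*-SKO SPG replicate 1 (-1.24, adjusted p = 0.00744). In PreL the values were 2206, 4282 and 1887 in WT and 1047, 1059 and 1556 in *Nat10*-SKO. WT PreL replicate 2, which had the highest *Hspa2*, was also the WT PreL library with the most late spermatocyte marker reads. The groups did not overlap, and *Hspa2* was 2.29-fold lower, a log2 change of -1.12 ± 0.29 (SE, adjusted p = 0.0281). That call was lost without WT PreL replicate 2 (log2 change -0.77, adjusted p = 0.0601), without *Nat10*-SKO PreL replicate 1 (-1.01, adjusted p = 0.0993) and without *Nat10*-SKO PreL replicate 2 (-1.02, adjusted p = 0.0838). On the calibrated values without rescaling, where the median change of all genes in PreL was 0.73, it was -0.40 (adjusted p = 0.262) and not called.

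In LZ the rescaled *Hspa2* values were 25985 and 49686 in WT and 7383, 5239 and 6183 in *Nat10*-SKO. Both WT libraries lay far above the 3 *Nat10*-SKO libraries. The mean was 6.04-fold lower in *Nat10*-SKO, 6268 ± 1074 (SD, n = 3) against 37835 ± 16759.6 (SD, n = 2), with a log2 change of -2.53 ± 0.29 (SE, adjusted p = 0.00032). The median change of all genes tested in LZ was -0.13. No single library decided the LZ call. The late spermatocyte markers named above moved in the same direction, with WT LZ replicate 3 highest for both *Hspa2* and the markers, and their part in the result was not tested.

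Across stages, levels were compared per kilobase of exon on 1 scale over the 17 libraries. In WT, *Hspa2* went from 424 ± 52.8 rescaled reads per kb (SD, n = 3) in SPG to 1193 ± 554 (n = 3) in PreL and 6774 ± 2888 (n = 2) in LZ. In *Nat10*-SKO it went from 225 ± 86 to 519 ± 125 and 1137 ± 185 (n = 3 each). The groups followed the order WT LZ, WT PreL, SKO LZ, SKO PreL, WT SPG and SKO SPG, and the libraries of WT PreL overlapped those of SKO LZ, as those of SKO PreL overlapped those of WT SPG. From SPG to PreL the log2 change was 1.36 ± 0.26 (SE, adjusted p = 0.0144) in WT and 1.24 ± 0.27 (SE, adjusted p = 0.0284) in *Nat10*-SKO, and from PreL to LZ it was 2.39 ± 0.36 (SE, adjusted p = 0.00279) in WT and 1.11 ± 0.20 (SE, adjusted p = 0.00317) in *Nat10*-SKO. All 4 steps were called. The WT step to PreL was lost without WT SPG replicate 3 (adjusted p = 0.0723), and the *Nat10*-SKO step to PreL was lost without *Nat10*-SKO SPG replicate 3 or 4 or PreL replicate 1 or 3 (adjusted p from 0.0517 to 0.0905). The *Nat10*-SKO step to LZ stayed under an adjusted p of 0.05 in each fit without 1 library but fell to a log2 change of 0.998, 0.991 and 0.988 without PreL replicate 1, PreL replicate 2 and LZ replicate 1, and to 0.69 with library totals, so that it was not called in these 4 fits. The WT rise to LZ was larger than the *Nat10*-SKO rise: the genotype difference changed by -1.39 ± 0.44 (SE, adjusted p = 0.0171) on the log2 scale between PreL and LZ, a call lost without WT LZ replicate 3 (-0.96, adjusted p = 0.139) and without WT PreL replicate 4 (-1.15, adjusted p = 0.0515). Late spermatocyte markers rose in the WT steps too. In WT 6 of 13 tested were called higher from SPG to PreL and 13 of 13 from PreL to LZ. Over all genes, 2.54% and 18.8% were. In *Nat10*-SKO 0 of 10 and 3 of 5 tested were called higher, against 1.63% and 10.6% of all genes. The part of these markers in the *Hspa2* steps was not tested.

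**Figure D2:**
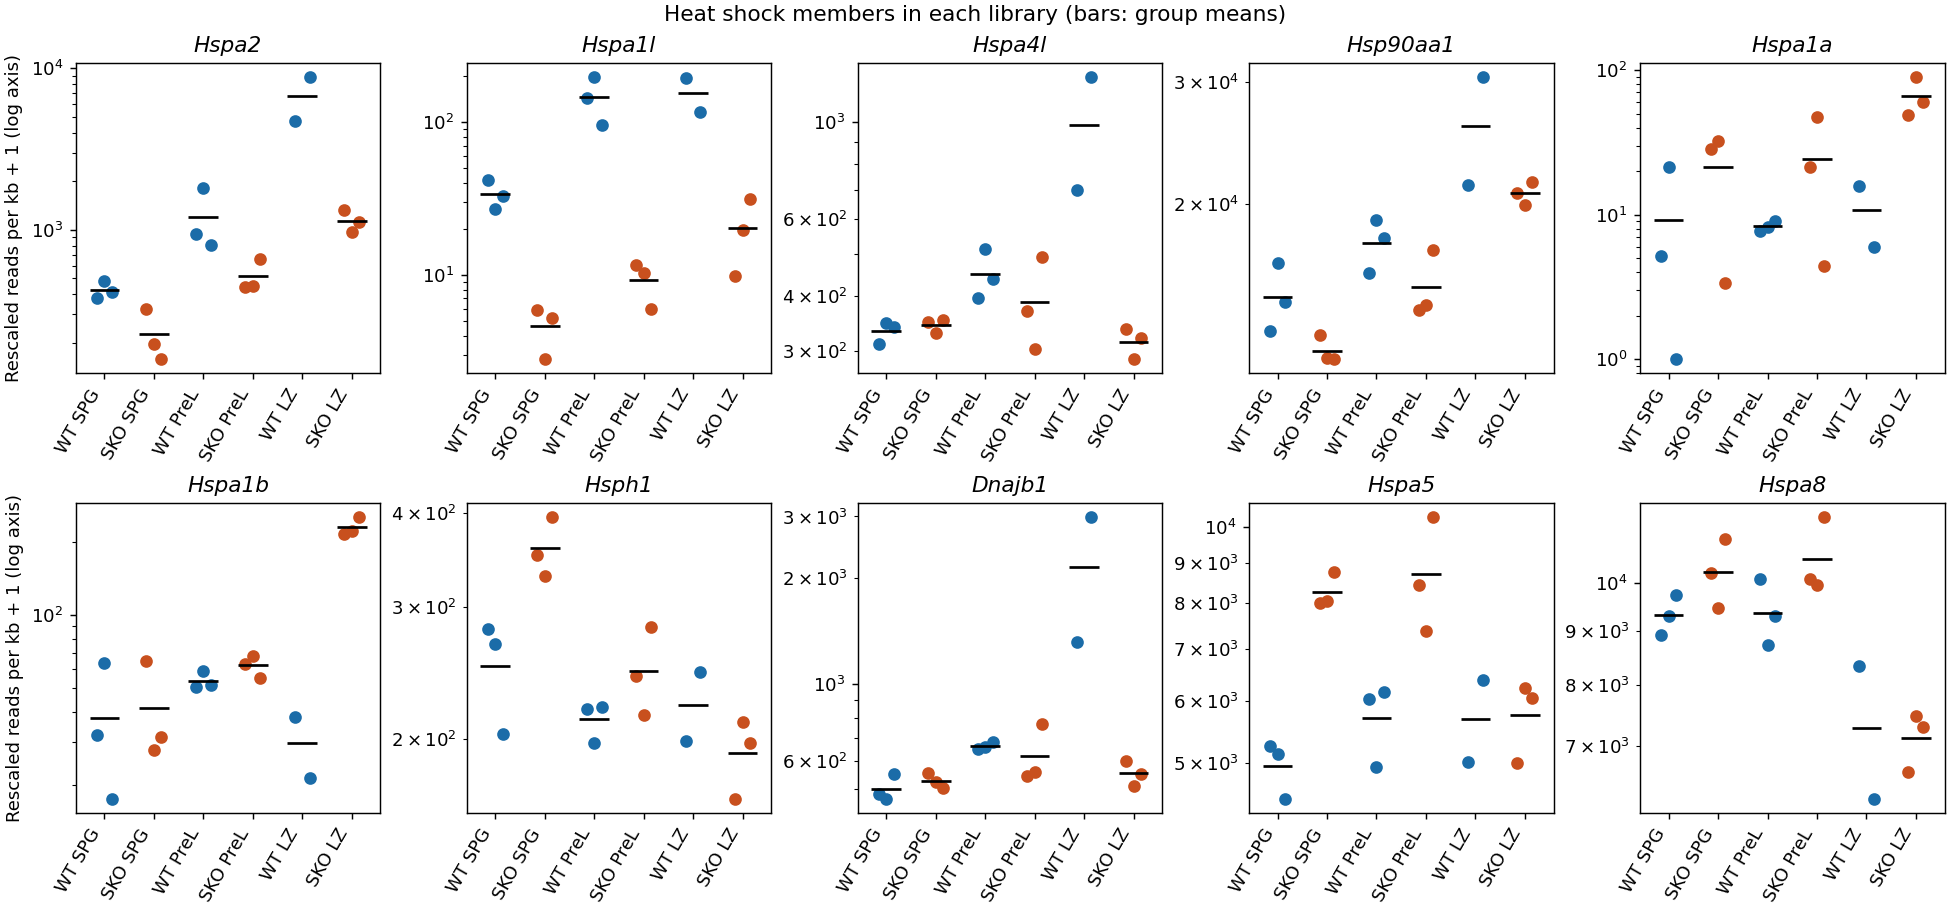
Rescaled reads per kb + 1 on a log axis for each of the 10 genes in the 17 libraries, with WT in blue, SKO in orange and black bars at group means. Each panel has its own range, and the WT LZ libraries stand highest for Hspa2, Hspa4l and Dnajb1 while the SKO LZ libraries stand highest for Hspa1a and Hspa1b.

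*Hspa1l*, the germ cell HSP70 next to *Hspa1a*, was lower in *Nat10*-SKO at all 3 stages. It had 65, 33 and 44 reads in WT SPG and 6, 2 and 6 in *Nat10*-SKO SPG, 177, 227 and 108 against 14, 13 and 6 in PreL and 341 and 154 against 4, 13 and 18 in LZ. No *Nat10*-SKO library reached the lowest WT library of its stage. In rescaled values the mean was 9.18-fold lower in SPG, 17.3-fold lower in PreL and 8.08-fold lower in LZ. The log2 changes, which a pseudocount of 10 pulls toward 0 at such low values, were -1.94 ± 0.51 (SE, adjusted p = 0.0279) in SPG, -3.50 ± 0.39 (SE, adjusted p = 0.000562) in PreL and -2.99 ± 0.54 (SE, adjusted p = 0.00304) in LZ, and all 3 were called. Each of WT SPG replicates 1, 2 and 3 and *Nat10*-SKO SPG replicates 3 and 4 ended the SPG call when left out (adjusted p from 0.0508 to 0.105). The LZ call was lost without WT LZ replicate 2 (-2.66, adjusted p = 0.0587), and no library ended the PreL call.

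In WT, *Hspa1l* rose from SPG to PreL by a log2 change of 1.88 ± 0.36 (SE, adjusted p = 0.0148), from 33 ± 7.65 to 145 ± 50.4 rescaled reads per kb, and the call was lost without WT SPG replicate 3 (adjusted p = 0.0629) or WT PreL replicate 2 (adjusted p = 0.0708). WT PreL and WT LZ overlapped, at 145 ± 50.4 and 155 ± 55.7 rescaled reads per kb. From SPG to PreL in WT, 6 of 12 spermatid markers and 6 of 13 late spermatocyte markers tested were called higher too. Over all genes tested, 2.54% were. The summed spermatid markers, like *Hspa1l*, were lower in *Nat10*-SKO at all 3 stages. The part of these markers in the *Hspa1l* values was not tested. The change in its genotype difference between PreL and LZ was 0.73 ± 0.67 (SE, adjusted p = 0.416), was not called and changed sign without rescaling (-0.21). The exons of *Hspa1l* overlap *Gm10501*, an annotated antisense gene that has no row in the table, and 70.2% of its 150-base transcript windows also occur in a transcript of another annotated gene, so its reads cannot be told apart from antisense reads in a library that does not mark strand.

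*Hspa4l*, an HSP110-family partner of HSP70, differed between the genotypes in LZ. Its rescaled values were 17062 and 31834 in WT LZ and 8308, 6929 and 7869 in *Nat10*-SKO LZ. The WT libraries were both higher, and the mean was 3.17-fold lower in *Nat10*-SKO, a log2 change of -1.60 ± 0.26 (SE, adjusted p = 0.00188) that was called with each library left out. In SPG and PreL the libraries of the genotypes overlapped (2220.4 to 2448 in WT SPG against 2309.9 to 2488 in *Nat10*-SKO SPG). From PreL to LZ, WT *Hspa4l* changed by 0.94 ± 0.26 (SE, adjusted p = 0.0227) and was not called for its size. It was called without WT PreL replicate 2 (1.02, adjusted p = 0.0369), with library totals (1.09, adjusted p = 0.00272) and in 1 limma fit of all libraries (1.08, adjusted p = 0.000452). Without rescaling it was called at 2.77 (adjusted p = 1.92e-05), where the median of all genes was 1.86. The change was 1.34 without WT LZ replicate 2 and 0.52 without WT LZ replicate 3. The genotype difference itself changed between PreL and LZ by -1.35 ± 0.28 (SE, adjusted p = 0.000911), so that it was larger in LZ than in PreL. Late spermatocyte markers were lower in *Nat10*-SKO LZ, as *Hspa4l* was, and also in PreL, where *Hspa4l* overlapped. Their part was not tested. The exon length used for its per-kb level, 11.792 kb, merges alternative exons and makes that level low.

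The stress-induced HSP70 genes *Hspa1a* and *Hspa1b* were higher in *Nat10*-SKO LZ. In SPG, *Hspa1a* had 8, 31 and 0 reads in WT and 41, 42 and 4 in *Nat10*-SKO. In PreL it had 10, 10 and 11 reads in WT against 32, 77 and 5 in *Nat10*-SKO, and in LZ 31 and 8 against 26, 74 and 42. The spread was wide within most groups, and a WT SPG library had no read at all. The genotypes overlapped in SPG and PreL, with log2 changes of 0.92 ± 0.73 (SE, adjusted p = 0.467) and 0.89 ± 0.66 (SE, adjusted p = 0.377), although *Hspa1a* was called in PreL when *Nat10*-SKO PreL replicate 3 was left out (1.64, adjusted p = 0.0472). In LZ the rescaled values were 90.6 and 31.6 in WT and 297, 539 and 367 in *Nat10*-SKO, so that all 3 *Nat10*-SKO libraries were higher. The mean was 6.57-fold higher, a log2 change of 2.63 ± 0.52 (SE, adjusted p = 0.00433), which was lost without WT LZ replicate 3 (1.97, adjusted p = 0.0511) and was 3.24 without WT LZ replicate 2.

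*Hspa1b* had more reads and gave the clearer result. Its rescaled values in LZ were 216 and 122 in WT and 1257, 1268 and 1476 in *Nat10*-SKO, from 74 and 31 reads in WT and 110, 174 and 169 in *Nat10*-SKO. Every *Nat10*-SKO library exceeded both WT libraries by far more than the spread within either group. The mean was 7.88-fold higher in *Nat10*-SKO LZ, with a log2 change of 2.95 ± 0.33 (SE, adjusted p = 0.000292) that was called with each library left out. In PreL the change was 0.20 ± 0.27 (SE, adjusted p = 0.636) and the libraries overlapped, at 123, 144 and 126 in WT and 154, 168 and 135 in *Nat10*-SKO. In *Nat10*-SKO, *Hspa1b* rose from PreL to LZ by 1.83 ± 0.18 (SE, adjusted p = 0.000135), from 61.1 ± 6.44 to 228 ± 20.6 rescaled reads per kb, while WT LZ held 28.8 ± 11.8. *Hspa1a* changed by 1.81 ± 0.67 (SE, adjusted p = 0.062) over the same step and was called only when *Nat10*-SKO PreL replicate 2 was left out (2.49, adjusted p = 0.0103) among the fits that left out 1 library, with 0.98 without replicate 3. The genotype difference of *Hspa1b* changed between PreL and LZ by 2.69 ± 0.61 (SE, adjusted p = 0.00196), and that of *Hspa1a* by 1.53 ± 1.16 (SE, adjusted p = 0.316), which was not called and ranged from 0.76 without *Nat10*-SKO PreL replicate 3 to 2.18 without replicate 2.

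Since *Hspa1a* and *Hspa1b* are near-identical copies, uniquely mapped reads can be split or lost between them. Of the 150-base windows of *Hspa1a*, 46.0% occur in a transcript of another annotated gene, and of those of *Hspa1b*, 40.5%. These shares count matches on either strand and include *Gm20481*, *Gm10501* and *Hspa1l* besides the other copy. The exons of *Hspa1a* overlap *Gm20481*, annotated on the opposite strand. Its reads there cannot be told apart from antisense reads, since the protocol does not mark strand. With the reads of both genes summed, the LZ log2 change was 2.93 ± 0.33 (SE, adjusted p = 0.000327), the PreL change 0.43 ± 0.30 (SE, adjusted p = 0.351), and the difference between these stages 2.46 ± 0.68 (SE, adjusted p = 0.00825). The near-identical promoters printed above, with 1 inverted heat shock pair each, belong to these genes. In *Nat10*-SKO LZ their RNA was at a low level, at 65.1 ± 20.9 and 228 ± 20.6 rescaled reads per kb against 7121 ± 458 for *Hspa8*.

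A list of 10 immediate early genes, such as *Fos*, *Jun* and *Egr1*, which respond within minutes to cell handling and signalling, was also higher in *Nat10*-SKO. Its summed level was 58.8 to 157 RPM in WT LZ and 254 to 347 in *Nat10*-SKO LZ, with 8 of 10 genes called higher. In SPG it was 53.9 to 64.4 against 293 to 599, with 10 of 10 called higher, and in PreL 69.3 to 87.1 against 103 to 359.7, with 4 of 10. Over all genes tested, 3.95% were called higher in SPG, 5.32% in PreL and 13.4% in LZ. Leydig cell markers summed to 20.9 to 57.3 RPM in WT LZ and 79.1 to 229.7 in *Nat10*-SKO LZ, with 5 of 7 called higher. Macrophage markers reached 1.3 to 7.24 and 5.51 to 30.5, with 3 of the 4 tested called higher. Sertoli cell markers reached 275 to 1409 and 437 to 601, with 0 of the 7 tested called and *Amh* at 0 in *Nat10*-SKO LZ. Peritubular myoid markers were at 11.8 to 25.3 and 11.2 to 14.3, with 1 of the 3 tested called lower, against 25.8% of all genes. The part of handling and of other cell types in the *Hspa1a* and *Hspa1b* result was not tested.

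*Dnajb1*, the J-domain partner that starts the HSP70 cycle, is usually grouped with the stress-induced genes, and in LZ it changed in the same direction as *Hspa2*, *Hspa1l* and *Hspa4l*. Its rescaled values in LZ were 8753 and 20444 in WT and 4046, 3366 and 3694 in *Nat10*-SKO. WT LZ replicate 3 was the highest, and the WT and *Nat10*-SKO libraries did not overlap. The mean was 3.94-fold lower in *Nat10*-SKO, with a log2 change of -1.85 ± 0.33 (SE, adjusted p = 0.00264). In SPG and PreL the libraries of the genotypes overlapped. In WT, *Dnajb1* rose from PreL to LZ by 1.44 ± 0.30 (SE, adjusted p = 0.00819), from 663 ± 16.6 to 2154 ± 1187 rescaled reads per kb, and this passed the fold threshold only with WT LZ replicate 3 (0.86 without it, adjusted p = 0.0383). In *Nat10*-SKO the level was 622 ± 123 in PreL and 555 ± 45.7 in LZ. The genotype difference changed between PreL and LZ by -1.73 ± 0.31 (SE, adjusted p = 0.000278). Both it and the LZ difference were called with each library left out, but their size rested on the WT LZ pair. The LZ change was -1.26 without WT LZ replicate 3 and -2.49 without replicate 2, and the difference between stages was -1.15 and -2.32. Late spermatocyte markers were also highest in WT LZ replicate 3, and they were lower in *Nat10*-SKO PreL too, where *Dnajb1* overlapped. Their part was not tested.

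*Hsp90aa1*, the inducible cytosolic HSP90, was the most abundant of the 10 transcripts per kilobase, at 14648 ± 1679 rescaled reads per kb in WT SPG and 25923 ± 6492 in WT LZ. Its genotype difference was -0.27 ± 0.11 (SE, adjusted p = 0.147) on the log2 scale in SPG, where all *Nat10*-SKO libraries were lower, and -0.31 ± 0.28 (SE, adjusted p = 0.383) in LZ, where the libraries overlapped. *Hsph1*, the inducible HSP110, had rescaled values of 1229.8, 1162 and 887 in WT SPG and 1517, 1425 and 1717 in *Nat10*-SKO SPG. The *Nat10*-SKO libraries were all higher, but the change of 0.51 ± 0.16 (SE, adjusted p = 0.0555) was not called, and in LZ it was -0.23 ± 0.19 (SE, adjusted p = 0.347). Other annotated genes share 28.5% of the 150-base windows of *Hsp90aa1*, and unique mapping can remove such reads.

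Of the constitutive chaperones, *Hspa5*, the HSP70 of the endoplasmic reticulum and a target of the unfolded protein response, was higher in *Nat10*-SKO before LZ. Its rescaled values in SPG were 13484, 13026 and 11500.1 in WT and 20142, 20304 and 22259 in *Nat10*-SKO, and in PreL 22502, 18499 and 23103 in WT and 31806, 27724 and 38676 in *Nat10*-SKO. The groups did not overlap at either stage. The log2 changes were 0.72 ± 0.11 (SE, adjusted p = 0.00119) and 0.61 ± 0.16 (SE, adjusted p = 0.0318), or 1.65-fold and 1.53-fold, below the size required for a call, although without rescaling the PreL change was 1.33 (adjusted p = 0.000261) and was called. By adjusted p alone, which *Hspa5* passed, 799 of 12846 genes tested were higher in SPG and 1034 of 13132 in PreL. Over all genes tested, 3.95% were called higher in SPG, and 5.32% higher and 5.83% lower in PreL. Leydig cell markers were at 5.61 to 15.5 RPM in WT SPG against 62.5 to 225 in *Nat10*-SKO SPG (5 of 7 called higher) and 6.25 to 17.7 against 40.4 to 459 in PreL (6 of 7). Macrophage markers were at 7.85 to 13.9 against 79.7 to 146 in SPG (5 of 7) and 10.2 to 22.8 against 22.1 to 82.9 in PreL (2 of 7). Sertoli cell markers were at 23.8 to 35.3 against 47.1 to 91.7 in SPG (1 of 6 tested called higher) and 65.2 to 72.6 against 64.9 to 952 in PreL (4 of 7), where *Nat10*-SKO replicates 1 and 2 were high and replicate 3 was not. Peritubular myoid markers were at 2.24 to 11.4 against 35.3 to 65.4 in SPG (2 of 4 tested called higher) and 7.09 to 8.77 against 6.22 to 13.6 in PreL (1 of 3 called lower). *Lhcgr* and *Emr1* had no read in WT SPG, *Amh* had none in WT PreL, and the part of these cells in the *Hspa5* values was not tested. In LZ the values were 44005 and 57486 in WT and 44308, 54291 and 53422 in *Nat10*-SKO and overlapped, with a change of 0.00 ± 0.21 (SE, adjusted p = 0.987) whose sign turned with the scaling (-0.12 without rescaling and -0.37 with library totals). From PreL to LZ, *Hspa5* in *Nat10*-SKO changed by -0.62 ± 0.18 (SE, adjusted p = 0.0279), again under the fold threshold, of the other sign without rescaling (0.23) and called with library totals (-1.04, adjusted p = 0.00087). The genotype difference changed between PreL and LZ by -0.58 ± 0.22 (SE, adjusted p = 0.0473), a call near its threshold that was lost when any 1 of 6 libraries was left out (WT PreL replicate 2, *Nat10*-SKO PreL replicates 1 and 3, WT LZ replicate 3, *Nat10*-SKO LZ replicates 1 and 3; log2 change from -0.62 to -0.42, adjusted p from 0.0571 to 0.206). The same call was lost in edgeR (-0.44, adjusted p = 0.121). In limma it was lost with TMM, another scaling (adjusted p = 0.0594), with a pseudocount of 1 (0.0547) and with no filter on low values (0.0769).

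*Hspa8*, the constitutive cytosolic HSP70, was not called between the genotypes at any stage. Its rescaled values in LZ were 74416 and 57084 in WT and 59599, 66160.2 and 65482 in *Nat10*-SKO, which overlapped, and the log2 change was -0.03 ± 0.21 (SE, adjusted p = 0.905), which took the other sign in edgeR. Its level per kb ranged over the 6 groups from 7121 in SKO LZ to 10542 in SKO PreL, and WT LZ and SKO LZ lay below the SPG and PreL groups. From PreL to LZ it changed by -0.60 ± 0.16 (SE, adjusted p = 0.0162) in *Nat10*-SKO, under the fold threshold, of the other sign without rescaling (0.25) and called with library totals (-1.01, adjusted p = 0.000409). Other annotated genes share 23.0% of its 150-base windows.

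**Figure D3:**
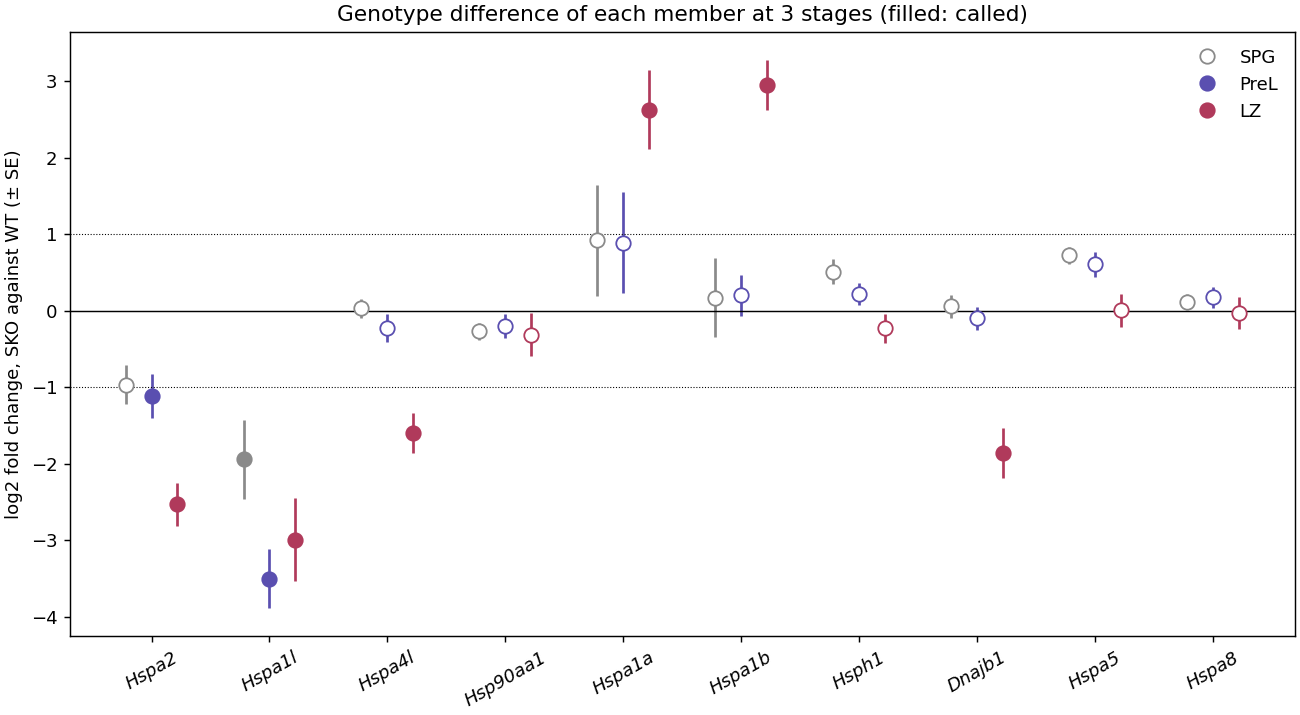
log2 fold change of SKO against WT with its standard error for each of the 10 genes at SPG (grey), PreL (violet) and LZ (red), with filled points called and dotted lines at a change of 1 in either direction. Hspa2 and Hspa1l lie below 0 at all 3 stages, Hspa4l and Dnajb1 fall below -1 in LZ, and Hspa1a and Hspa1b lie above 2 in LZ.

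Over the 10 genes, the calls between genotypes were few before LZ. In SPG 1 of the 10 members was called, *Hspa1l*, which was lower. Of all 12846 genes tested, 2.06% were called lower and 3.95% higher. In PreL 2 of 10 were called, *Hspa2* and *Hspa1l*, both lower, against 5.83% lower and 5.32% higher of 13132 genes. In LZ 4 of 10 were called lower (*Hspa2*, *Hspa1l*, *Hspa4l* and *Dnajb1*) and 2 higher (*Hspa1a* and *Hspa1b*), against 25.8% lower and 13.4% higher of 13724 genes. With so large a background in LZ, the 4 of 10 lower calls are not read as a result about heat shock genes. The split of all genes into lower and higher calls moved with the scaling. It was 265 and 508 in SPG (578 and 399 without rescaling), 765 and 699 in PreL (585 and 3459 without rescaling) and 3534 and 1838 in LZ (4556 and 1166 with library totals). The median change of the 10 members was 0.09, 0.04 and -0.27 on the log2 scale in SPG, PreL and LZ, and that of all genes tested was 0.00, 0.04 and -0.13.

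Between stages in WT, 2 of 10 members were called higher in PreL than in SPG (*Hspa2* and *Hspa1l*), where 2.54% of all genes were called higher and 1.21% lower, and 2 of 10 were called higher in LZ than in PreL (*Hspa2* and *Dnajb1*), where 18.8% were called higher and 7.8% lower. In *Nat10*-SKO, 1 of the 9 members tested, *Hspa2*, was called higher in PreL than in SPG, against 1.63% higher and 0.955% lower of all genes, and *Hspa1l* had too few reads to be tested. From PreL to LZ in *Nat10*-SKO, 2 of 10 were called higher, *Hspa2* and *Hspa1b*, against 10.6% higher and 6.93% lower. These stage steps share their PreL libraries within a genotype. The change in the genotype difference between SPG and PreL was called for 0 of 10 members by limma, with 0 of 10 at an unadjusted p under 0.05 and 0 by edgeR and DESeq2, where 0.111% of all genes changed toward lower and 0.251% toward higher in *Nat10*-SKO. Between PreL and LZ it was called for 5 of 10, with *Hspa2*, *Hspa4l*, *Dnajb1* and *Hspa5* toward lower and *Hspa1b* toward higher, against 23.1% and 15.1% of all genes. Lower and higher calls over all genes numbered 153 and 322 for the WT step to PreL (95 and 332 without rescaling) and 1073 and 2585 for the WT step to LZ (15 and 10992). In *Nat10*-SKO they numbered 123 and 210 for the step to PreL (30 and 5657 without rescaling) and 865 and 1319 for the step to LZ (152 and 4409 without rescaling and 2255 and 853 with library totals). For the change in the genotype difference they were 15 and 34 between SPG and PreL (147 and 5938 and 7 and 28) and 3122 and 2040 between PreL and LZ (6575 and 749 and 4728 and 1126).

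Read as a family, the 6 HSP70 genes changed their make-up. As a share of the reads per kb summed over *Hspa2*, *Hspa1l*, *Hspa1a*, *Hspa1b*, *Hspa8* and *Hspa5*, *Hspa2* took 2.86% ± 0.315 (SD, n = 3) in WT SPG, 7.33% ± 3.71 (n = 3) in WT PreL and 33.4% ± 10.6 (n = 2) in WT LZ. In *Nat10*-SKO its share was 1.21% ± 0.477, 2.59% ± 0.309 and 8.02% ± 1.87 (n = 3 each). *Hspa1a* and *Hspa1b* together remained a small part, with *Hspa1b* at 1.6% ± 0.121 in *Nat10*-SKO LZ and 0.149% ± 0.0762 in WT LZ. *Hspa8* held 37.2% ± 11.7 in WT LZ and 49.7% ± 0.403 in *Nat10*-SKO LZ. Shares of 1 library sum to 100, so the lower share of one gene raises those of the others, and depth does not enter them.

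**Figure D4:**
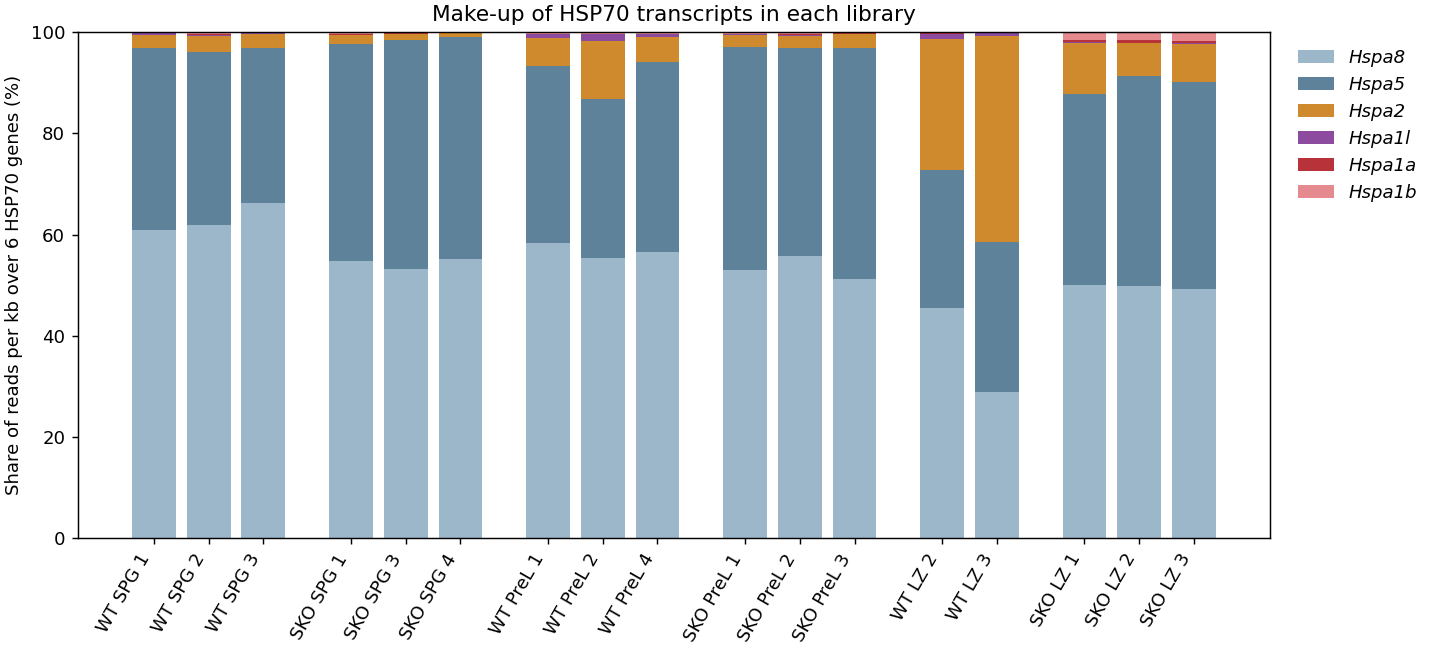
Stacked bars of the share (%) of each of 6 HSP70 genes in their summed reads per kb, 1 bar per library. The orange Hspa2 segment is largest in the 2 WT LZ libraries and smaller in all 3 SKO LZ libraries, where Hspa1b becomes visible at the top.

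Other chaperones were taken from a list of 89 genes in 8 groups. In SPG 2 of the 82 tested were called lower (*Dnajb8*, at -2.37 ± 0.53 (SE, adjusted p = 0.0122) and *Dnajc5b* at -3.26 ± 0.50 (SE, adjusted p = 0.00129)) and 2 higher (*Bag2* at 1.02 ± 0.31 (SE, adjusted p = 0.0471) and *Herpud1* at 1.08 ± 0.26 (SE, adjusted p = 0.0171)). Over all genes tested the shares were 2.06% and 3.95%, and the higher calls numbered 0 in limma without WT SPG replicate 2, *Nat10*-SKO SPG replicate 1 or replicate 4. In PreL 10 of 82 were called lower and 3 higher, against 5.83% and 5.32% of all genes, and of the lower ones 8 were J-domain genes. The 3 higher genes were *Dnajb4* at 1.11 ± 0.20 (SE, adjusted p = 0.00658) and the small heat shock genes *Hspb1* at 2.36 ± 0.71 (SE, adjusted p = 0.0485) and *Hspb8* at 1.98 ± 0.60 (SE, adjusted p = 0.0491). The higher calls numbered 1 without *Nat10*-SKO PreL replicate 2, without WT PreL replicate 4, with a pseudocount of 50 or with a mean of at least 50 reads. The lower calls numbered 6 without *Nat10*-SKO PreL replicate 1 or WT PreL replicate 2. Sertoli cell markers were high in *Nat10*-SKO PreL replicates 1 and 2, as given above, and their part was not tested. In LZ 29 of 81 were called lower and 1 higher, *Hspe1*, the mitochondrial co-chaperonin, at 1.89 ± 0.20 (SE, adjusted p = 0.000217). The median of the 81 was -0.69, against -0.13 over all genes, of which 25.8% were called lower and 13.4% higher. The genes named in this paragraph were chosen after their values were seen.

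By group, 8 of 23 J-domain genes, 8 of 18 co-chaperones, 4 of 11 chaperonins, 4 of 11 genes of endoplasmic reticulum folding, 2 of 4 heat shock factor genes, 2 of 5 small heat shock genes and 1 of 3 other HSP90 genes were called lower in LZ, where the share over all genes was 25.8%. Nothing particular to a group is read from these counts. The other HSP70 and HSP110 genes had 6 members tested, with log2 changes around a median of -0.14 and 0 of 6 called by limma, edgeR or DESeq2 and 2 of 6 at an unadjusted p under 0.05 in limma. Several of the largest changes were in germ cell forms. With so few *Nat10*-SKO reads as follow, the size of a log2 change depends on the pseudocount. *Hspb9*, a testis small heat shock protein, had 1361 and 3154 reads in WT LZ and 3, 2 and 2 in *Nat10*-SKO LZ, a log2 change of -7.83 ± 0.56 (SE, adjusted p = 5.7e-05). *Dnajb13*, an axonemal J-domain protein of the sperm tail and cilia, had 576 and 871 reads against 3, 0 and 3, a change of -6.58 ± 0.71 (SE, adjusted p = 0.000253) that ranged from -7.93 to -5.17 over the alternatives (-5.91 without *Nat10*-SKO LZ replicate 2). *Dnajc5b*, the testis form of a cysteine string protein, had 513 and 316 reads against 2, 0 and 2, a change of -6.05 ± 0.59 (SE, adjusted p = 0.000163) that ranged from -7.49 to -4.50. *Cct6b*, the testis form of a CCT chaperonin subunit, fell from 1783 and 3869 to 12, 19 and 12 reads, a change of -6.04 ± 0.45 (SE, adjusted p = 6.3e-05), and the general subunit gene *Tcp1* changed by -2.62 ± 0.26 (SE, adjusted p = 0.000179). *Hspb9* ranged from -8.67 to -7.03 and *Cct6b* from -6.84 to -5.28 when WT LZ replicate 2 or 3 was left out.

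Among co-chaperones, *Stub1*, the ubiquitin ligase CHIP that acts on HSP70 clients, changed by -3.71 ± 0.64 (SE, adjusted p = 0.00234) in LZ, a call lost without either WT library (adjusted p = 0.0674 and 0.0743 without replicates 2 and 3). *Bag5*, a nucleotide exchange factor of HSP70, changed by -2.82 ± 0.32 (SE, adjusted p = 0.000308), and *Bag6*, which is needed for the stability of HSPA2, by -2.10 ± 0.25 (SE, adjusted p = 0.000384). In the endoplasmic reticulum group, *Ddit3* (CHOP) changed by -2.70 ± 0.45 (SE, adjusted p = 0.00193) and *Sdf2l1* by -2.41 ± 0.35 (SE, adjusted p = 0.00111), in a stage where *Hspa5* was not called, and without WT LZ replicate 3 *Sdf2l1* was at -1.84, against -3.04 without replicate 2. The *Ddit3* call was lost without WT LZ replicate 3 (-2.17, adjusted p = 0.066). *Trap1*, the mitochondrial HSP90, changed by -1.48 ± 0.20 (SE, adjusted p = 0.000754). *Hspb6* changed by -2.72 ± 0.47 (SE, adjusted p = 0.00249) and was lost without WT LZ replicate 3 (-2.24, adjusted p = 0.0641). In WT, 21 of the 81 listed chaperones tested were called higher in LZ than in PreL, against 18.8% of all genes, and 9 were without WT LZ replicate 3.

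**Figure D5:**
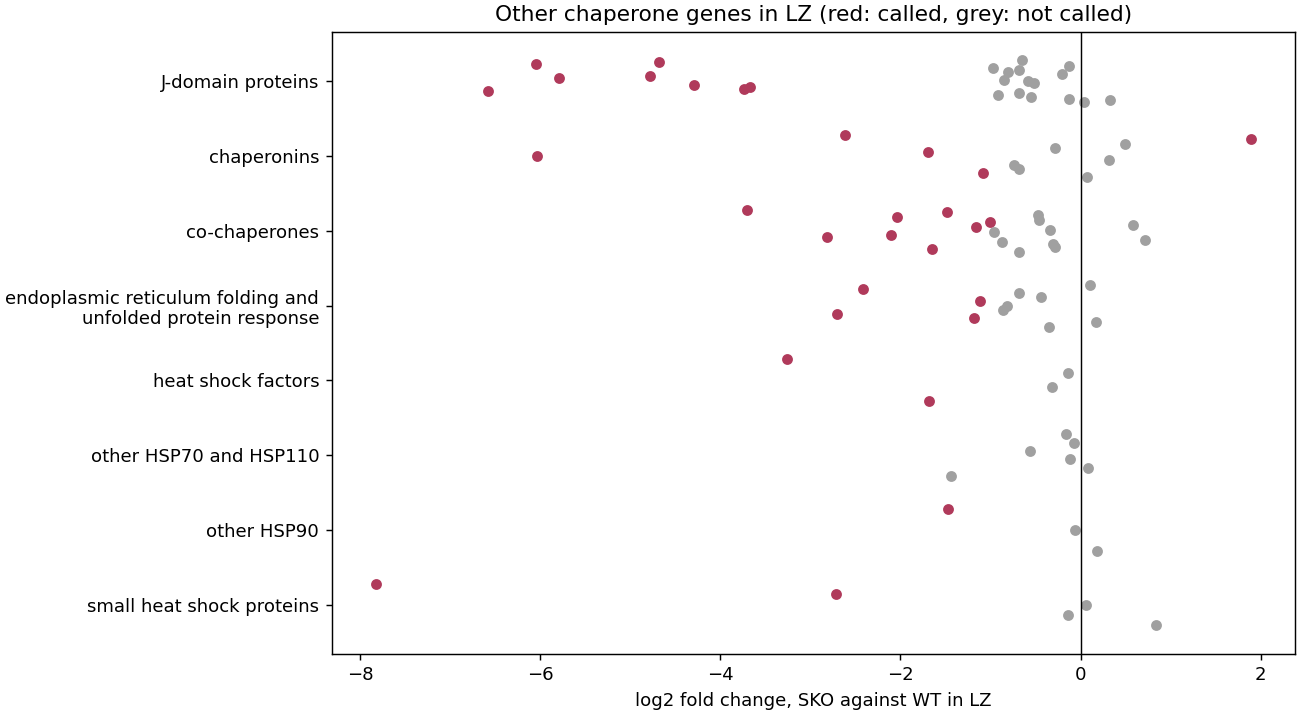
log2 fold change of SKO against WT in LZ for the 81 other chaperone genes tested, each a point, in 8 groups, with called genes in red. Called genes lie almost all below 0, with Hspb9, Dnajb13, Dnajc5b and Cct6b farthest, and Hspe1 is the 1 called point above 0.

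The genes of heat shock transcription factors were checked beside their targets. *Hsf1*, the main activator of the stress-induced genes, changed by -0.32 ± 0.25 (SE, adjusted p = 0.316) in LZ, and *Hsf2*, a factor of spermatogenic cells, by -0.14 ± 0.26 (SE, adjusted p = 0.677). Neither was called at this stage. *Hsf5*, a germ cell member of the family, had 2594 and 3707 reads in WT LZ and 120, 129 and 116 in *Nat10*-SKO LZ, a change of -3.26 ± 0.30 (SE, adjusted p = 0.000137). *Hsbp1*, whose product binds HSF1, changed by -1.68 ± 0.25 (SE, adjusted p = 0.00129). RNA of a factor gives no measure of its activity.

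Of 7 genes tied to HSPA2 by function, 4 were called lower in LZ, where 25.8% of all genes were. The transition protein genes *Tnp1* and *Tnp2*, whose proteins HSPA2 is known to accompany in spermatids, had 1751 and 907 reads against 10, 22 and 17 and 4178 and 2316 against 3, 0 and 2, with log2 changes of -4.84 ± 0.32 (SE, adjusted p = 5.2e-05) and -8.84 ± 0.63 (SE, adjusted p = 5.7e-05). The *Tnp2* value rests on the pseudocount and ranged from -10.25 to -7.33. Both were already present in WT SPG, at 550, 172 and 261 and 1549, 436 and 1009 reads, although transition proteins belong to spermatids. *Shcbp1l*, listed in the table as *1700012A16Rik* and encoding a spindle partner of HSPA2, changed by -3.86 ± 0.38 (SE, adjusted p = 0.000162), and ranged from -4.62 to -3.16 when WT LZ replicate 2 or 3 was left out. *Bag6* was given above. The synaptonemal gene *Sycp1*, in contrast, changed by 0.44 ± 0.24 (SE, adjusted p = 0.165), *Cdk1* by 0.29 ± 0.16 (SE, adjusted p = 0.174, and -0.09 with library totals) and *Ccnb1* by 0.98 ± 0.17 (SE, adjusted p = 0.00265), and these 3 did not pass both thresholds in limma. *Ccnb1* was just past the fold threshold in edgeR (1.03, adjusted p = 0.00288), in DESeq2 (1.02, adjusted p = 2.2e-06) and in limma without WT LZ replicate 2 (1.08), *Nat10*-SKO LZ replicate 1 (1.05) or replicate 3 (1.007).

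Finally, genes with patterns like those of *Hspa2* and *Hspa1a* were listed by Pearson's r of log2 values over the 17 libraries, with the candidates limited to an average of 100 reads or more. The points share libraries, stages and genotypes, so r is a description only. Most like *Hspa2* were *Cox6b2* (r = 0.97), *1700021C14Rik* (r = 0.96), *Dph3* (r = 0.96), *Rangrf* (r = 0.96) and *1700019A02Rik* (r = 0.95). *Cox6b2* encodes a testis form of a cytochrome c oxidase subunit. Among the 6 other members with that many reads, *Hsp90aa1* (r = 0.93) and *Dnajb1* (r = 0.83) were nearest to *Hspa2*, and *Hspa8* was farthest (r = -0.71). Most like *Hspa1a* among these candidates were *Kbtbd2* (r = 0.88), *3110003A17Rik* (r = 0.87), *Wbp5* (r = 0.86), *Rgmb* (r = 0.83) and *Mosc2* (r = 0.83). *Hspa1a* itself had only 0 to 77 reads in a library, so this ranking rests on low values. Its near-identical copy *Hspa1b* averaged under 100 reads and was not a candidate. *Hspa1a* and *Hspa2* themselves had r = 0.02.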

How the data were processed

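RNA was sequenced from 17 libraries. The authors deposited 1 table of signal values: reads assigned uniquely to each of 23282 genes (mm10), multiplied by 1 calibration factor per library from ERCC spike-ins and cell input. The submitters' processing notes name TopHat2 2.1.1, Cufflinks 2.2.1, HTSeq 0.11.2 and DESeq2, and the builds mm9 and mm10. Dividing by each library's step returned whole reads for 100% of values, within a tolerance of 0.01. Unique mapping lowers the counts of genes with close copies, and the protocol does not mark strand.

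Size factors (median of ratios) were computed over the libraries of each comparison, and log2(rescaled value + 10) was fitted with limma-trend (limma 3.58.1, R 4.3.3) for genes averaging 10 reads or more. P-values were adjusted by Benjamini-Hochberg over all genes tested. A gene was called at an adjusted p under 0.05 and an absolute log2 change above 1, and a change in the genotype difference at an adjusted p under 0.05. Samples were grouped by the labelled genotype and stage. Levels per kb used merged GENCODE vM21 exons. The alternatives included edgeR 4.0.16 and DESeq2 1.42.0 on the recovered reads. The limma and edgeR fits of SKO against WT at each stage, and of the change in the genotype difference between PreL and LZ, were tested on simulated data. The fits of the other comparisons, DESeq2 and the other alternatives were not.

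Genes named were the 10 members, *Nat10*, *Hsf1*, *Hsf2*, 7 genes tied to HSPA2, up to 2 genes of each chaperone group with the largest called LZ change and an average of 100 reads or more, and the 5 genes most like *Hspa2* and *Hspa1a*. The members and lists were chosen with earlier results of these data known.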

Additional observations from a re-analysis of the deposited data

Results flagged for a closer look

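The difference between *Nat10*-SKO and WT was itself tested between PreL and LZ by an interaction term in limma. It differed for 5 of the 10 heat shock genes, against 23.1% of all genes toward lower and 15.1% toward higher. With so large a background, this count is not read as a result about heat shock genes. *Hspa2* (-1.39 on the log2 scale), *Hspa4l* (-1.35) and *Dnajb1* (-1.73) were lower in *Nat10*-SKO by more in LZ than in PreL. For *Hspa2* this was lost without WT LZ replicate 3 (-0.96, adjusted p = 0.139) and without WT PreL replicate 4 (-1.15, adjusted p = 0.0515). For *Hspa1b* (2.69) the genotypes overlapped in PreL, and *Nat10*-SKO was higher in LZ. For *Hspa5* (-0.58) *Nat10*-SKO was higher in PreL, while the genotypes overlapped in LZ, a call that also ended when any 1 of 6 libraries was left out (adjusted p from 0.0571 to 0.206). This *Hspa5* call ended in edgeR as well (-0.44, adjusted p = 0.121).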

How the results depend on the processing

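The 6 calls among heat shock genes between genotypes in LZ stayed at 5 to 6 with 1 library left out, and of 64 log2 changes recomputed, 33 kept sign and call under all alternatives run. Of the 31 others, 11 changed sign or call on the calibrated values without rescaling, where the median of all genes moved to -0.25 in SPG, 0.73 in PreL, -0.25 in LZ and -1.12 for the difference between PreL and LZ, against -0.13 in LZ and -0.31 for that difference after rescaling. With library totals these last were -0.50 and -0.74.

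In SPG the heat shock genes called (1) were 0 with edgeR, a mean of at least 50 reads, no filter, a pseudocount of 50 or the replicate block, 2 without rescaling, 3 with no fold threshold, and 0 to 2 with 1 library left out. In PreL (2) they were 1 to 3 with 1 library left out. From SPG to PreL they were 0 with no filter and 0 to 2 with a library left out in WT (2), and 7 without rescaling, 0 with no filter, 0 with the block and 0 to 1 with a library left out in *Nat10*-SKO (1). From PreL to LZ they were 8 without rescaling and 1 to 3 with a library left out in WT (2), and 5 without rescaling, 4 with no fold threshold and 1 to 2 with a library left out in *Nat10*-SKO (2). The genotype difference changed for 6 genes without rescaling between SPG and PreL (0), and between PreL and LZ (5) for 8 without rescaling, 8 with library totals, 3 with the block and 3 to 5 with a library left out.

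The other chaperones called in SPG (4) were 2 with a mean of at least 50 reads, 2 with a pseudocount of 50, 14 with no fold threshold and 2 to 5 with a library left out. In PreL (13) they were 25 without rescaling, 27 with no fold threshold and 8 to 15 with a library left out, and in LZ (30) 46 with no fold threshold and 23 to 34 with a library left out.

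Signs turned for *Hspa5* in LZ (-0.12 without rescaling, -0.37 with library totals, -0.21 to 0.18 with a library left out), *Hspa8* in LZ (0.0049 in edgeR, 0.014 with the block, -0.25 to 0.13), *Hsf2* in LZ (-0.37 to 0.024), *Cdk1* in LZ (-0.087 with library totals), *Hspa5* and *Hspa8* from PreL to LZ in *Nat10*-SKO (0.23 and 0.25 without rescaling) and the difference of *Hspa1l* between PreL and LZ (-0.21 without rescaling, 0.34 to 1.09 with a library left out). The cause was not tested.

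Replicate numbers are shared by 2 pairs in each genotype comparison. The deviations of same-numbered libraries from their group means had r from -0.05 to 0.11, and those of the other pairs r from -0.10 to 0.06. With so few libraries, deviations within a group are tied to each other. These values therefore cannot decide whether same-numbered libraries share more than a number. With the replicate block, *Hspa1l* in SPG (adjusted p = 0.0615), *Hspa2* from SPG to PreL in *Nat10*-SKO (0.147) and the differences of *Hspa2* (0.0552) and *Hspa5* (0.0563) between PreL and LZ were not called, and *Nat10* in SPG (0.0292), *Hspa1a* in PreL (0.0444) and from PreL to LZ in *Nat10*-SKO (0.0233), and *Ccnb1* in LZ (9.8e-06) were. Of 50 further log2 changes of the 10 genes left out of the text, 34 changed sign and 14 were called under at least 1 alternative, 3 of them other than without rescaling. Few reads limit *Hspa1l* in *Nat10*-SKO and *Hspa1a* in all groups.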

Other observations

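In *Nat10*-SKO cells 3 of the 77 other chaperone genes tested were called higher in LZ than in PreL, and 8 were called lower, against 10.6% and 6.93% of all genes, so that the share called higher was below the background. With library totals 1 was called higher and 22 lower, and without rescaling 12 higher and 1 lower. The 3 called higher after rescaling were *Bag3* (log2 change 1.81), a partner of HSP70 in the stress response, *Dnaja4* (1.34), a J-domain protein, and *Hspe1* (1.49), the mitochondrial co-chaperonin. They were named after their values were seen. *Hspa1b*, at 1.83 ± 0.18 (SE), was called higher in the same comparison.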
